A study of Homo sapiens with 12 samples.

Results

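Genes that move in opposite directions when AGR2 is lowered and when it is raised were sought in PC9 cells, an EGFR-mutant human lung adenocarcinoma line. The members were the protein-coding genes of the nuclear chromosomes with at least 1 TPM (a relative transcript abundance that sums to the same total in every library) in at least 3 libraries, 10672 of the 16040 such genes in the table and of 30225 genes in all. Each had a knockdown effect, an overexpression effect and the difference of the 2, overexpression minus knockdown, on the scale of log2(rescaled TPM + 1), where 1 unit is a 2-fold change for well expressed genes and less than the true change for low ones. Genes past the test in both comparisons were sorted by the signs of the effects. Reciprocal genes numbered 3389, of which 1611 were lower in knockdown and higher in overexpression and 1778 were the reverse. Same-sign genes numbered 1513, of which 667 were higher in both and 846 were lower in both.

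Total RNA was sequenced from 12 libraries in 4 groups of 3 replicates, all exposed to gefitinib at 300 nM, which blocks the kinase of EGFR. Control cells and shAGR2 knockdown cells were taken at 24 h, and control cells and oeAGR2 overexpressing cells at 72 h, so the comparisons share no library. The labels do not say how the control cells were made, which vector or promoter was used, or whether each line was a clone or a pool. They also do not say that replicates came from separate cultures, so p-values measure the spread between these libraries, which may be technical. The effects differ in time of exposure as well as in AGR2, and time and perturbation cannot be told apart in their difference.

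AGR2 is a member of the protein disulfide isomerase family that resides in the endoplasmic reticulum and is needed for the folding of mucins in secretory epithelia. It is made by many adenocarcinomas and can also leave the cell. EGFR signals through RAS and ERK to immediate-early transcription factors and to the cell cycle, and gefitinib cuts that signal off in cells with a mutant receptor.

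The table gave TPM and no read counts, and sequencing depth is therefore unknown. Replicates correlated at 0.989 to 0.999 within groups and libraries at 0.867 to 0.976 between groups. The 24 h controls stood apart in scale, with size factors of 0.729 to 0.794 against 1.05 to 1.14 in the other 9 libraries. Protein-coding nuclear genes, before the filter on level, held 23.9% to 26.8% of their TPM against 29.4% to 33.8% elsewhere. Genes of the mitochondrial chromosome held 42.6% to 46.5% of TPM in the 24 h controls and 36.2% to 37.1% after knockdown. They held 41.1% to 42.8% in the 72 h controls, and 37.3%, 47.4% and 45.8% in overexpression replicates 1 to 3. Within their groups, replicate 1 of the 24 h controls and replicate 1 of the overexpressing cells deviated from the group mean in a like way (r = 0.741 across genes). All 9 epithelial markers were present, with a summed level of 7780 to 10400 rescaled TPM in the 24 h controls, 2630 to 2890 after knockdown, 5550 to 5770 in the 72 h controls and 7130 to 9640 with overexpression. Of 16 listed leukocyte markers 11 were in the table, and 8 of these lay under 1 deposited TPM in every library, PTPRC at no more than 0.0213. But the list summed to 60.0 to 137 rescaled TPM, mostly from CD68, a lysosomal protein. CD14 was at up to 2.19 and LYZ at up to 1.81 deposited TPM. The platelet gene PPBP reached 6.95 deposited TPM, all 7 endothelial markers in the table lay under 1, and so did 5 of the 6 fibroblast markers.

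AGR2 itself, on chromosome 7 at 16791811 to 16833433 (minus strand, GRCh38), stood at 45.1, 40.6 and 39.9 rescaled TPM in the 24 h controls and at 0.521, 0.621 and 0.685 after knockdown. It stood at 7.84, 7.29 and 7.19 in the 72 h controls and at 11.6, 9.57 and 9.74 with overexpression. The groups of each comparison did not overlap, but the overexpressing cells at 72 h held less AGR2 RNA than the control cells at 24 h. The knockdown effect was -4.74 (SE 0.08, limma adjusted p = 1.44e-10) and the overexpression effect was 0.42 (SE 0.08, limma adjusted p = 0.00116). Labels and the targeted gene therefore went the same way in both comparisons, with a far smaller rise than fall.

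Knockdown raised 3661 members (34.3%) and lowered 3631 (34.0%), 68.3% together, against 28.6%, 31.0% and 59.6% of all 15721 genes tested. Overexpression raised 3369 members (31.6%) and lowered 3455 (32.4%), 63.9% together, against 30.0%, 26.1% and 56.1% of all genes tested. Of the members lowered by knockdown, 44.4% were raised by overexpression and 23.3% were lowered by it. Of those raised by knockdown, 48.6% were lowered by overexpression and 18.2% were raised by it. Past both tests were 4902 members, and 69.1% of them were reciprocal. The share was 72.3% where both effects reached 0.25, 78.6% of 1409 genes where both reached 0.5, 82.1% of 251 genes where both reached 1, 78.5% of 65 genes where both reached 1.5 and 80.8% of 26 genes where both reached 2. Without any test, 60.9% of all members had effects of opposite sign, and across members the effects correlated at -0.31 (Pearson and Spearman, 10672 genes from 12 libraries, a description with no p).

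The 4 classes held 15.1% of members (lower in knockdown, higher in overexpression), 16.7% (the reverse), 6.25% (higher in both) and 7.93% (lower in both). Over all genes tested the shares were 13.6%, 13.1%, 5.03% and 6.16%. The libraries of the groups did not overlap in the knockdown comparison for 75.0% of members (66.3% of all genes tested) and in the overexpression comparison for 72.1% (63.5%). They did not overlap in either comparison for 5916 members (55.4%, against 45.6% of all genes tested). Effects of at least 2-fold in both comparisons were seen in 136, 70, 6 and 39 genes of the 4 classes.

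The class sizes rest on the scaling of the 24 h controls. With TPM as deposited, the median member moved by 0.40 in knockdown and by -0.40 in the difference of effects, and the 4 classes held 739, 2527, 1576 and 305 genes. Of the members past both tests under this scaling, 63.5% were reciprocal. Of the genes lower in knockdown and higher in overexpression, 45.1% kept that class under this scaling. Of the genes lower in both, 34.6% kept it, while 94.4% of the genes higher in knockdown and lower in overexpression and 90.7% of those higher in both did. All 32 genes named below by class kept it under every setting that was run without a minimum effect. They were chosen for large effects and libraries without overlap, so their retention does not speak for the rest of the classes. With a minimum of 2-fold in both comparisons, FAM43A, MAGEC2, EHF, PNN and VEGFA fell outside the class higher in both. Without replicate 1 of the 24 h controls and of the overexpressing cells, the percent reciprocal among members past both tests was 65.5.

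**Figure D1:**
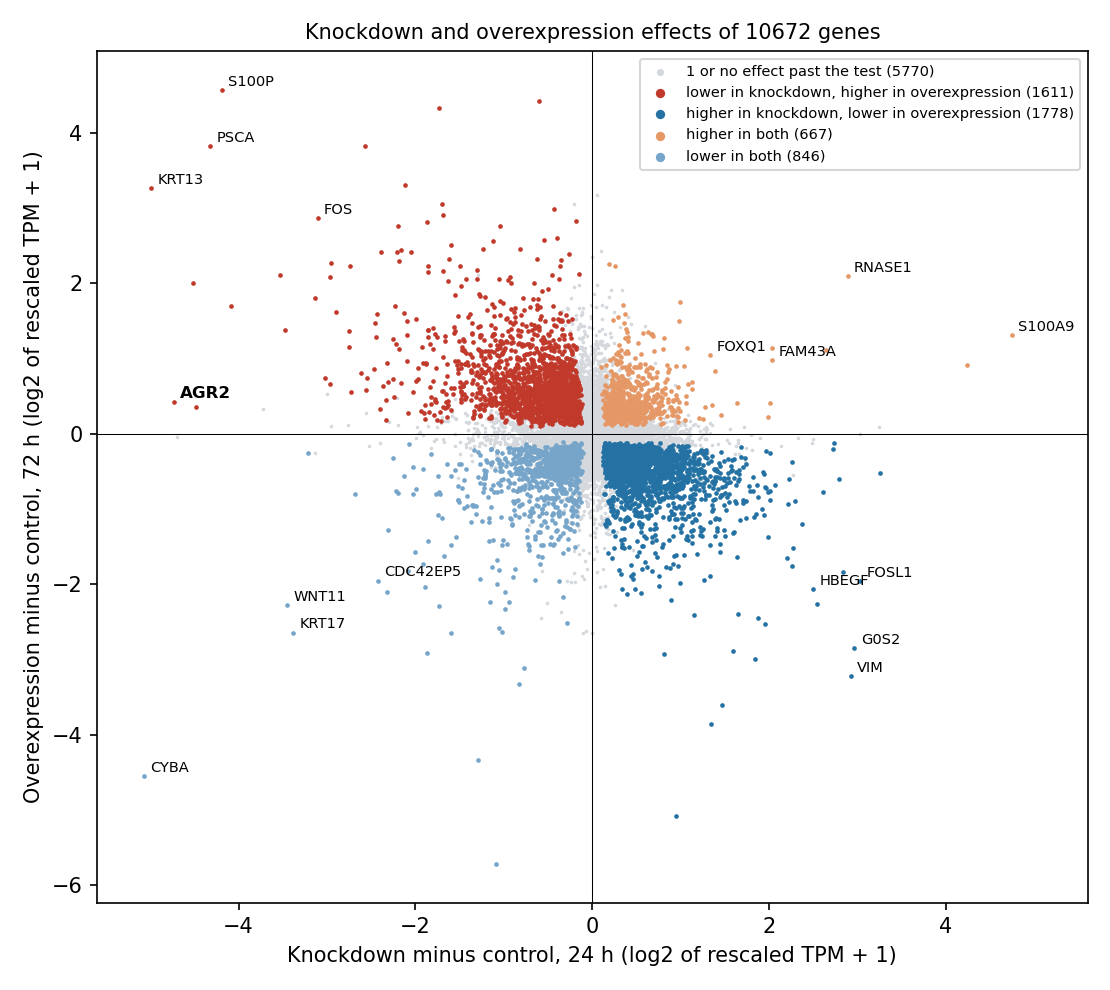
Knockdown effect at 24 h (horizontal axis) against overexpression effect at 72 h (vertical axis), both as log2 differences of rescaled TPM + 1, with 1 point per member, coloured by class. The upper left and lower right corners hold the 3389 reciprocal genes, and the upper right and lower left hold the 1513 same-sign genes. AGR2 lies far to the left with an overexpression effect of 0.42.

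By construction all 3389 reciprocal genes have effects that add up in their difference, and all of them passed the test of the difference, which is therefore a description. Of all members, 7584 (71.1%) passed that test, 3800 higher and 3784 lower, against 63.6% of all genes tested. Same-sign genes passed it when 1 effect was larger than the other. Of the 667 genes higher in both, 144 (21.6%) had a higher and 125 (18.7%) a lower difference. Of the 846 genes lower in both, 195 (23%) had a higher and 209 (24.7%) a lower one. The shares of all members were 35.6% and 35.5%, but these include the reciprocal genes, all of which passed. The gap therefore follows in part from how the classes were defined.

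The genes lower in knockdown and higher in overexpression were led by S100P, PSCA and KRT13. S100P, a calcium-binding S100 protein, stood at 89.7, 68.3 and 63.2 rescaled TPM in the 24 h controls, 3.23, 3.38 and 2.59 after knockdown, 13.2, 12.6 and 12.3 in the 72 h controls and 448, 264 and 290 with overexpression. PSCA, a surface protein held by a lipid anchor, stood at 97.9, 66.9 and 78.3 in the 24 h controls, 2.98, 3.32 and 2.89 after knockdown, 56.5, 55.7 and 56.2 in the 72 h controls and 989, 701 and 773 with overexpression. KRT13, a keratin of non-cornified stratified epithelium, stood at 82.5, 63.3 and 72.0, then 1.39, 1.16 and 1.38, then 22.3, 22.3 and 21, and then 273, 183 and 212 in the same order of groups. The groups of each comparison were fully apart, which was a condition for naming a gene by class. In all of these genes replicate 1 was the highest of the overexpressing libraries.

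S100P fell by 4.19 in knockdown (SE 0.19, limma adjusted p = 6.5e-08) and rose by 4.57 in overexpression (SE 0.19, limma adjusted p = 4.58e-08). PSCA fell by 4.32 and rose by 3.83 (SE 0.15 in each, limma adjusted p = 9.12e-09 and 2.6e-08). KRT13 fell by 4.99 and rose by 3.27 (SE 0.14, limma adjusted p = 2.85e-09 and 4.63e-08). The next of this class were FOS, the immediate-early AP-1 subunit, at 94.4 ± 1.08 (SD, n = 3) against 10.1 ± 0.254 in the 24 h comparison and 123 ± 2.50 against 901 ± 25.4 in the 72 h comparison. CFD, complement factor D, had effects of -2.58 and 3.83. MUC20, a membrane mucin, had effects of -2.39 and 2.41, and so nearly mirrored itself. UPK3B, a uroplakin of urothelium, had effects of -2.95 and 2.27, and LOXL4, a lysyl oxidase of the extracellular matrix, had -2.74 and 2.23. All 8 passed limma in both comparisons, as the class requires.

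The genes higher in knockdown and lower in overexpression were led by VIM, G0S2 and HBEGF. VIM, the intermediate filament vimentin, stood at 5.74, 5.45 and 5.67 rescaled TPM in the 24 h controls, 46.8, 50 and 50.8 after knockdown, 17.4, 17.4 and 17.6 in the 72 h controls and 1.07, 0.760 and 1.13 with overexpression. G0S2, an inhibitor of triglyceride lipase, stood at 16.4, 12.5 and 15.3, then 114, 117 and 133, then 21.6, 22.8 and 21, and then 3.87, 1.74 and 1.40. HBEGF, a ligand of EGFR, stood at 1.52, 1.59 and 1.67, then 13.5, 13.7 and 13.6, then 7.99, 8.01 and 7.61, and then 1.25, 1.11 and 1.01. In all of these genes the knockdown libraries were the highest of the 12 and the overexpressing libraries lay below both control groups.

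VIM rose by 2.92 in knockdown (SE 0.07, limma adjusted p = 1.14e-09) and fell by 3.22 in overexpression (SE 0.07, limma adjusted p = 8.49e-10). G0S2 rose by 2.96 and fell by 2.85 (SE 0.22, limma adjusted p = 1.85e-06 and 2.76e-06). HBEGF rose by 2.50 and fell by 2.06 (SE 0.05, limma adjusted p = 4.71e-10 and 1.28e-09). FOSL1, the AP-1 subunit FRA1, stood at 11.4 ± 0.823 (SD, n = 3) against 99.9 ± 2.56 in the 24 h comparison and 27.7 ± 1.69 against 6.39 ± 0.654 in the 72 h comparison, the opposite of its relative FOS. The others were the metallothionein MT2A (effects 1.95 and -2.53), the chemokine CXCL8 (1.88 and -2.45), the secreted glycoprotein STC2 (2.83 and -1.83) and the cytokine IL11 (1.83 and -3.00). All 8 passed limma in both comparisons, as the class requires.

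**Figure D2:**
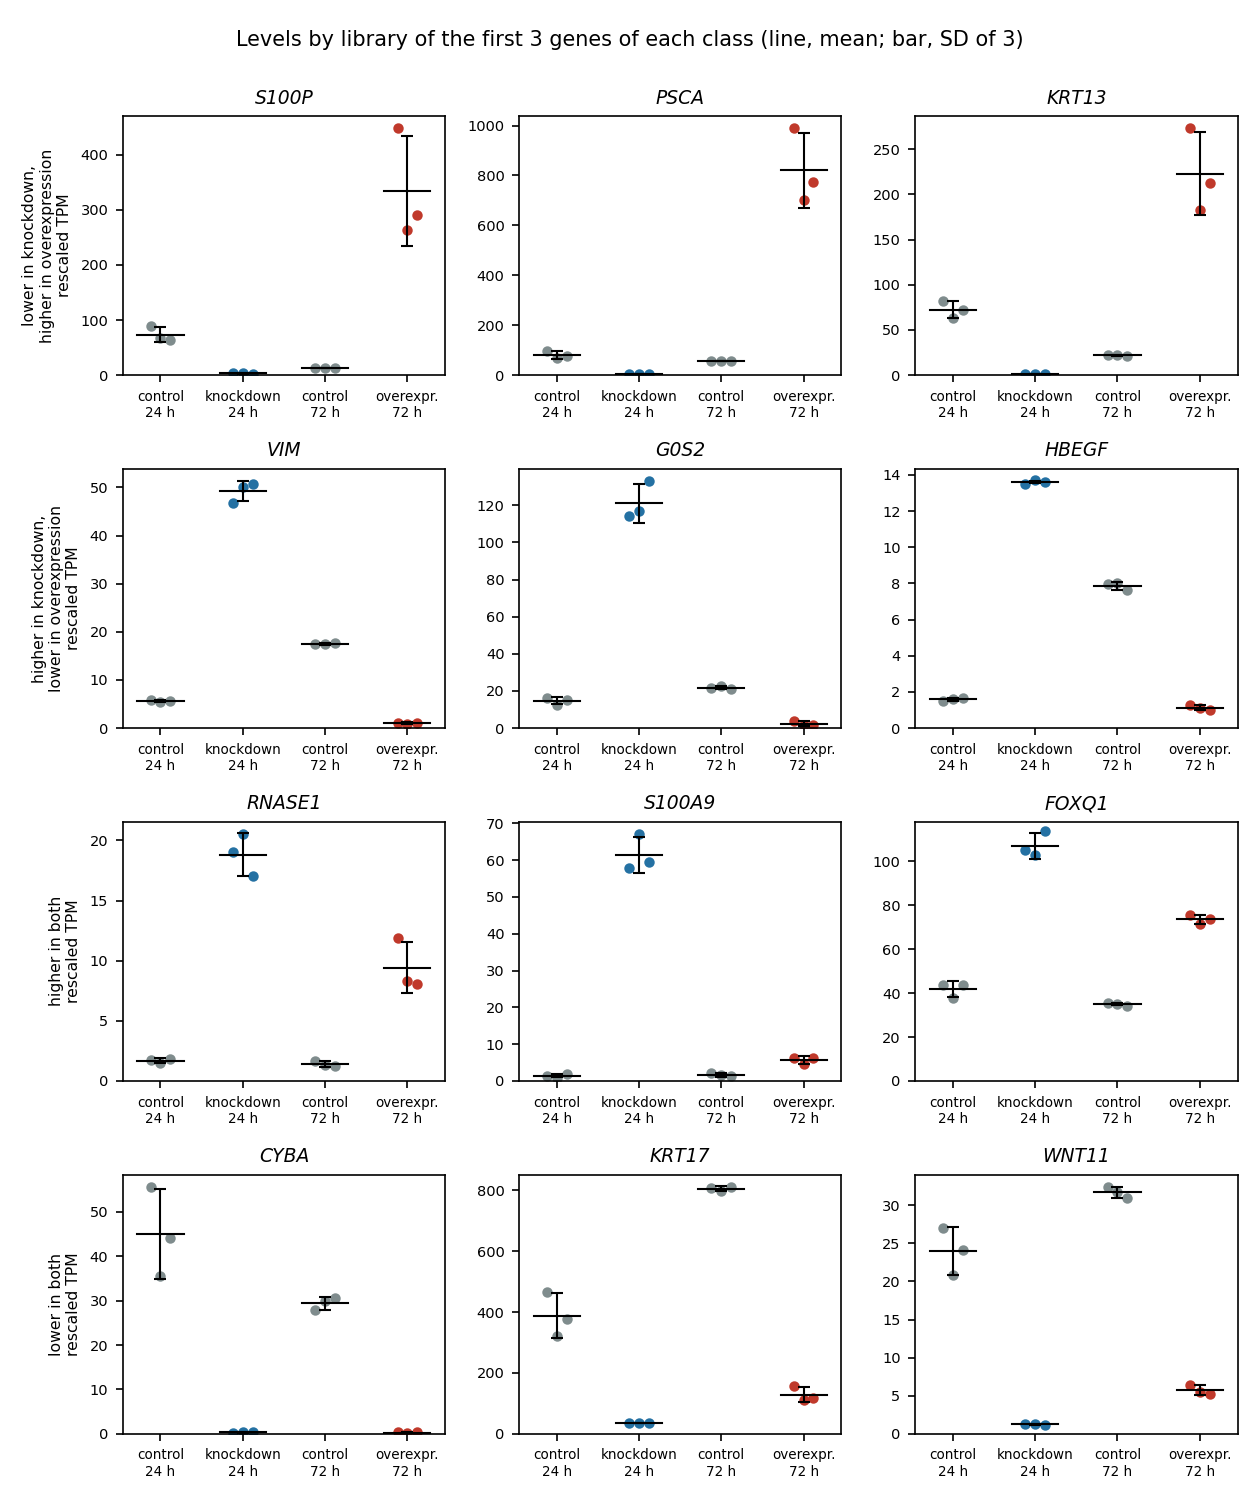
Rescaled TPM in every library for the first 3 genes of each class (rows), with control and perturbed cells at 24 h and 72 h along the horizontal axis, each vertical axis starting at 0. Points are libraries, lines are means and bars are the SD of 3. In the upper 2 rows knockdown and overexpression lie on opposite sides of their controls (S100P at 3.07 against 73.7 and 334 against 12.7), and in the lower 2 rows they lie on the same side (CYBA at 0.344 against 45.0 and 0.291 against 29.4).

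Genes higher in both perturbed lines had smaller effects. RNASE1, a secreted ribonuclease, stood at 1.72, 1.46 and 1.85 rescaled TPM in the 24 h controls, 19, 20.5 and 17.0 after knockdown, 1.66, 1.33 and 1.23 in the 72 h controls and 11.9, 8.35 and 8.02 with overexpression. S100A9, a subunit of calprotectin, stood at 1.38, 0.926 and 1.75, then 57.9, 67.1 and 59.5, then 2.27, 1.56 and 1.26, and then 6.28, 4.49 and 6.28. FOXQ1, a forkhead transcription factor, stood at 43.9, 37.8 and 43.8, then 105, 103 and 114, then 35.4, 35.0 and 34.3, and then 75.4, 71.5 and 73.8. Both control groups were low and both perturbed groups high in all of these genes, with no overlap, which the choice of genes fixed within each comparison.

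RNASE1 rose by 2.89 and 2.10, and the difference of effects was -0.79 (SE 0.19, limma adjusted p = 0.0046). S100A9 rose by 4.74 and 1.31, with a difference of -3.43 (SE 0.24, limma adjusted p = 9.51e-07), so that its knockdown effect was the larger. FOXQ1 rose by 1.34 and 1.05, with a difference of -0.28 (SE 0.09, limma adjusted p = 0.0213). FAM43A (2.04 and 0.98) and the cancer-testis antigen MAGEC2 (4.24 and 0.92) also rose more in knockdown, with differences of -1.06 and -3.32 that passed the test. For EHF, an epithelial ETS factor, PNN, a desmosome-associated splicing protein, and VEGFA, the angiogenic growth factor, the differences were -0.14, -0.01 and 0.07 and did not pass the test (limma adjusted p = 0.342, 0.946 and 0.572), with SE of 0.12, 0.11 and 0.11.

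Genes lower in both were led by CYBA, the membrane subunit of the NADPH oxidase, which was nearly lost from both perturbed lines. CYBA stood at 55.6, 35.5 and 44.0 rescaled TPM in the 24 h controls, 0.287, 0.395 and 0.349 after knockdown, 27.8, 29.8 and 30.6 in the 72 h controls and 0.316, 0.257 and 0.300 with overexpression. KRT17, a basal keratin, stood at 466, 320 and 377, then 35.3, 35.7 and 36.6, then 806, 797 and 812, and then 158, 112 and 118. WNT11, a Wnt ligand, stood at 27.0, 20.8 and 24.2, then 1.26, 1.34 and 1.20, then 32.4, 31.7 and 30.9, and then 6.45, 5.48 and 5.29. The perturbed groups lay below both control groups in all of these genes, with no overlap, which the choice of genes fixed within each comparison.

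CYBA fell by 5.08 in knockdown and fell by 4.56 in overexpression, and the difference of 0.52 (SE 0.18, limma adjusted p = 0.0272) passed the test. That call was lost in 4 settings (TPM as deposited, quantile normalisation, a pseudocount of 0.1, removal of the length and GC trend), where the interaction of CYBA was 0.01, 0.32, 0.41 and 0.13. KRT17 fell by 3.38 and 2.64, with a difference of 0.74 (SE 0.20, limma adjusted p = 0.00981), which was lost with deposited and quantile-normalised TPM. WNT11 fell by 3.45 and fell by 2.28 and kept its difference of 1.17 past the test (SE 0.13, limma adjusted p = 2.22e-05). IL32, a cytokine, and TAGLN, the actin-binding transgelin, fell more in overexpression (differences -1.05 and -0.55, both past the test). HMOX1, the heme oxygenase, fell by 2.08 and 1.83 with a difference of 0.26 (limma adjusted p = 0.0428) that passed narrowly, and the interaction of HMOX1 was -0.25 with deposited TPM. For CDC42EP5, an effector of the GTPase CDC42, and METRN, a secreted neurotrophic protein, the differences of 0.47 and -0.14 did not pass the test (SE 0.27 and 0.25, limma adjusted p = 0.144 and 0.635).

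Members with 1 effect past the test alone numbered 2390 for knockdown and 1922 for overexpression, and 1458 members passed neither test. Among them the largest positive differences came from genes of either kind. ALPG, a germ-cell alkaline phosphatase, fell from 84.6 ± 6.17 to 2.33 ± 0.693 rescaled TPM (SD, n = 3) in knockdown and was at 48.9 ± 1.54 and 47.6 ± 2.37 in the 72 h comparison. TNNC1, CRIP1 and IGFL1 followed it with knockdown effects of -3.72, -3.00 and -2.95 and overexpression effects of 0.34, 0.53 and 0.11 that did not pass the test. GDF15, a stress-induced cytokine, and HPGD, the enzyme that degrades prostaglandins, showed the other kind, with overexpression effects of 3.05 and 3.17 and knockdown effects of -0.21 and 0.06.

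The largest negative differences among these members belonged to NAP1L2 (-3.15), MT1E (-3.03), the keratin-associated KRTAP2-3 (-2.65), IL1A (-2.61), TNC (-2.57) and RRAD (-2.55). NAP1L2, MT1E, the cytokine IL1A and the matrix protein TNC rose in knockdown, reaching 9.20, 7.45, 5.24 and 5.35 rescaled TPM, and lay under 0.3 in both 72 h groups. Genes this low at 72 h passed the filter on level through the 24 h libraries, and their overexpression effects had little room to be negative. MT1E was listed at 0 in all 6 libraries of the 72 h comparison, so its overexpression effect had no such room. KRTAP2-3 and the GTPase RRAD fell in overexpression, from 58.8 ± 0.884 to 8.66 ± 2.15 and from 11.1 ± 1.19 to 0.983 ± 0.321 rescaled TPM (SD, n = 3).

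Gene lists placed the members by role, beside 15.1%, 16.7%, 6.25% and 7.93% of all members in the 4 classes and a median difference of effects of 0.01. The lists were chosen with earlier results of these data known, so their shares and medians are a description with no test. Of 20 tested luminal and urothelial differentiation genes, 16 were lower in knockdown and higher in overexpression, and the list's median difference was 3.13. Besides S100P, PSCA and KRT13, which led that class, it held ADIRF, an adipogenesis regulator, with effects of -1.74 and 4.34. Of 12 tested mucin and secretory genes, 7 were in the same class (median difference 2.17), with CEACAM6, a carcinoembryonic adhesion molecule, at -4.09 and 1.70 and the membrane mucin MUC1 at -3.14 and 1.80. The antiprotease SLPI fell by 2.56 in knockdown and its overexpression effect of 0.27 did not pass the test (limma adjusted p = 0.135).

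Of 34 epithelial junction and simple keratin genes, 15 were lower in knockdown and higher in overexpression and 7 were lower in both (9 and 0 with deposited TPM). The 7 became 4 without replicate 1 or 3 of the 72 h controls or replicate 3 of the overexpressing cells. CLDN3, a tight junction claudin, had effects of -2.44 and 1.28, KRT19 had -1.64 and 0.93 and the junction scaffold TJP3 had -1.29 and 1.11. The desmosomal plaque protein DSP went the other way, at 0.44 and -1.90. The list's median difference was 0.57. The summed epithelial markers, given above, were lowest after knockdown, and their part in these counts was not tested.

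**Figure D3:**
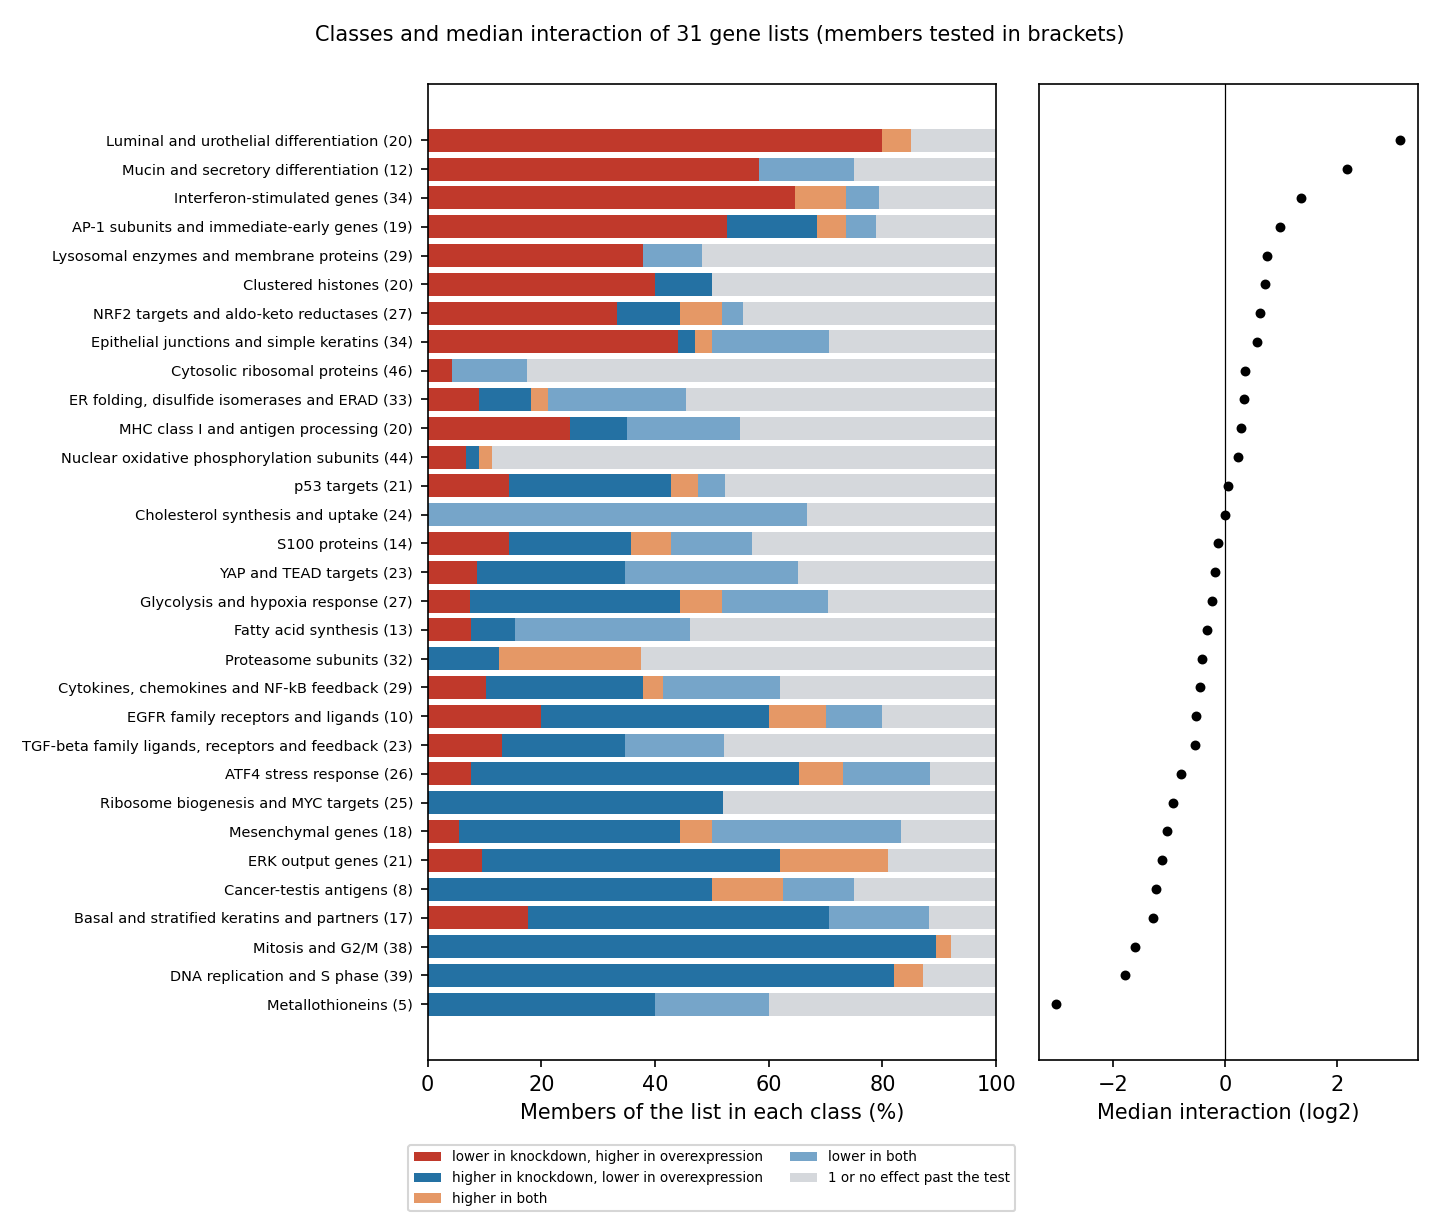
Left, share of each gene list's tested members (number in brackets) in the 4 classes, in percent, and right, the list's median difference of effects (overexpression minus knockdown, log2). Lists are ordered by that median, from luminal differentiation (3.13) at the top to metallothioneins (-3.03) at the bottom. The class higher in knockdown and lower in overexpression held 82.1% of replication and 89.5% of mitosis genes. Cholesterol synthesis genes were only in the class lower in both. The lists were chosen with earlier results of these data known.

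Interferon-stimulated genes were lower in knockdown and higher in overexpression in 22 of 34 tested members (16 with deposited TPM), with a median difference of 1.35. No member of the list was in the reverse class. IFITM1, a membrane protein that hinders virus entry, stood at 4.03 ± 0.295 against 0.396 ± 0.151 rescaled TPM (SD, n = 3) at 24 h and at 6.21 ± 0.281 against 31.2 ± 4.96 at 72 h. IFI6, the RNA-binding IFIT1 and the transcription factor IRF9 had effects of -1.30 and 2.18, -1.31 and 2.06, and -1.36 and 1.35, all past limma. Interferon acts through STAT and IRF factors on the response element GAAANNGAA. The element was found on either strand in 17 of the 28 promoters of the list (60.7%) and in 6.36% of all 8668 member promoters. Its share was 7.38% in genes lower in knockdown and higher in overexpression and 5.59% in the reverse class. In genes higher in both it was 8.84% and in genes lower in both 4.78%. A promoter here runs from 250 bases before to 50 after the RefSeq start (GRCh38.p14). The match nearest the start is shown with up to 20 bases on each side, and every match within that stretch is in capitals, for the 3 list members with the largest differences that hold it before the start. IFITM1 lies at chr11:313980-314028 (plus strand), IFI6 at chr1:27672257-27672305 (minus strand) and IFIT1 at chr10:89392501-89392549 (plus strand), whose stretch holds a pair of matches, both on the opposite strand:
IFITM1: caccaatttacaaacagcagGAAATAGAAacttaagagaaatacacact
IFI6: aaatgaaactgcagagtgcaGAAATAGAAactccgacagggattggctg
IFIT1: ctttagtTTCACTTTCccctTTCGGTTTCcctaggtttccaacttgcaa

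Of 20 tested genes of MHC class I and antigen processing, 5 were lower in knockdown and higher in overexpression, 2 the reverse and 4 lower in both. The 4 became 2 without replicate 2 of the 24 h controls or knockdown replicate 3, and the 2 became 1 without replicate 1 or 2 of the 24 h controls, any knockdown library or replicate 2 of the 72 h controls. PSMB10, a subunit of the immunoproteasome, had effects of -1.15 and 1.18, TAPBPL had -1.64 and 0.36, PSME1 had -1.18 and 0.59 and HLA-E had -0.82 and 0.39. The list's median difference was 0.28, and it was -0.23 with deposited TPM. Under that scaling 4 were in each reciprocal class, 1 was higher in both and none was lower in both.

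Genes of DNA replication and of mitosis went the reverse way. All 39 tested replication genes rose in knockdown and 32 of them fell in overexpression (2 rose), with a median difference of -1.79. CDC6, which loads the replicative helicase, stood at 2.32 ± 0.0898 against 15.2 ± 0.350 rescaled TPM (SD, n = 3) at 24 h and at 5.84 ± 0.288 against 2.67 ± 0.0339 at 72 h. The flap nuclease FEN1 and the helicase subunit MCM2 had effects of 2.01 and -0.89, and of 2.23 and -0.60, and GINS2 had 2.01 and -0.76. All 38 tested mitosis genes rose in knockdown and 34 of them fell in overexpression (1 rose), with a median difference of -1.61. MKI67, the proliferation marker Ki-67, stood at 16.3 ± 1.86 against 38.1 ± 1.89 at 24 h and at 16.8 ± 0.667 against 5.04 ± 1.66 at 72 h. The mitotic transcription factor FOXM1, the cyclin CCNA2 and the topoisomerase TOP2A had effects of 1.39 and -1.37, 1.24 and -1.36, and 1.62 and -0.92. These counts were 32 and 34 with deposited TPM as well.

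E2F sites (TTTGGCGC or TTTCCCGC, either strand) were found in 16 of 34 replication promoters (47.1%), in 5.45% of the promoters of genes higher in knockdown and lower in overexpression, in 2.33% of the reverse class and in 3.75% of all. The cell cycle homology region TTTGAA, bound by the DREAM complex, was found in 21 of 31 mitosis promoters (67.7%), in 12.8% and 6.90% of the same classes and in 9.02% of all. CCAAT, the letters of NF-Y sites, was found in 74.2% of mitosis and 58.8% of replication promoters against 37.3% of all. The AP-1 letters TGANTCA were found in 5.53% and 5.94% of the 2 reciprocal classes and in 4.61% of all, and the TEAD letters GGAATG in 10.2% and 10.5% against 10.8%. A match is a run of letters and not a measured site. The matches of the 3 genes with the largest differences that hold one before the start are shown in the same way, with each match in capitals and a pair of them in MKI67, first for E2F and then for TTTGAA, and those of GINS2, CDT1 and TOP2A read on the opposite strand. GINS2 lies at chr16:85688958-85689005 (minus strand), CDT1 at chr16:88803734-88803781 (plus strand), MCM3 at chr6:52284889-52284936 (minus strand), MKI67 at chr10:128126427-128126472 (minus strand), TOP2A at chr17:40418022-40418067 (minus strand) and PRC1 at chr15:90994536-90994575 (minus strand):
GINS2: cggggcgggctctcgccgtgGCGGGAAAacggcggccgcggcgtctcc
CDT1: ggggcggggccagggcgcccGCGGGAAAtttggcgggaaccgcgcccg
MCM3: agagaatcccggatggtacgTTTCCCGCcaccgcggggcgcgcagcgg
MKI67: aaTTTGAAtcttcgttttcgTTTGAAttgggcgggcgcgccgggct
TOP2A: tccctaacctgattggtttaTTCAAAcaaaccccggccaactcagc
PRC1: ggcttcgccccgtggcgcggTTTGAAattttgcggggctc

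Genes that report on ERK signalling split. Of 21 tested ERK output genes, 11 were higher in knockdown and lower in overexpression, 4 were higher in both and 2, FOS and EGR1, were the reverse (median difference -1.13). EGR1, an immediate-early zinc finger factor, stood at 44.5 ± 4.08 against 14.4 ± 1.02 rescaled TPM (SD, n = 3) at 24 h and at 75.8 ± 3.25 against 276 ± 21.6 at 72 h, while IER3 had effects of 1.15 and -2.41. Of 19 AP-1 subunits and immediate-early genes, 10 were lower in knockdown and higher in overexpression and 3 the reverse (median difference 0.98), with FOSB at -1.62 and 2.32. Of 10 tested EGFR family receptors and ligands, 4 were higher in knockdown and lower in overexpression, 2 were the reverse, 1 was higher in both and 1 lower in both. The 4, besides HBEGF, were the ligands AREG (1.34 and -1.90), EREG (2.21 and -0.94) and EPGN (0.59 and -1.71), and the list's median difference was -0.52.

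Basal and mesenchymal genes were spread over several classes. Of 17 basal and stratified keratin genes, 9 were higher in knockdown and lower in overexpression, 3 were the reverse and 3 were lower in both (median difference -1.30). KRT6A had effects of 1.47 and -3.61 and KRT6B 2.26 and -1.76, while KRT16 went the reverse way at -2.24 and 1.69, and KRT5 was lower in both at -1.09 and -5.72. Of 18 mesenchymal genes, 7 (38.9%) were higher in knockdown and lower in overexpression and 6 (33.3%) were lower in both (3 with deposited TPM), with a median difference of -1.04. TGM2, a transglutaminase, had effects of 3.25 and -0.52 and the fibronectin gene FN1 0.89 and -2.21, whereas S100A4 went the reverse way at -1.60 and 2.51. Of 23 genes of the TGF-beta family, 5 were higher in knockdown and lower in overexpression, 3 the reverse and 4 lower in both. The activin subunit INHBA had effects of 1.35 and -3.85 and INHBB -2.34 and 0.18, and TGFBI had 0.81 and -2.93. Of 23 YAP and TEAD targets, 6 were higher in knockdown and lower in overexpression and 7 were lower in both (10 and 4 with deposited TPM), with FJX1 at 1.67 and -1.15, ANKRD1 at 1.41 and -1.29, GADD45B at -1.12 and 1.32 and TGFB2 at -0.77 and -3.12.

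Stress and growth lists were mixed. Of 26 ATF4 stress response genes, 15 were higher in knockdown and lower in overexpression (median difference -0.79), with PSAT1 of serine synthesis at 1.70 and -0.89, the arginine transporter SLC7A1 at 1.12 and -1.29 and MTHFD2 at 1.39 and -0.63. Of 25 ribosome biogenesis and MYC target genes, 13 were in that class and none in another (median difference -0.93), with the polyamine enzyme ODC1 at 0.92 and -1.63, TSR1 at 0.89 and -0.72, CAD at 0.63 and -0.89 and NOP56 at 1.01 and -0.26. Of 32 proteasome subunits, 25 were called higher in knockdown, and 8 (25.0%) were higher in both, against 6.25% of all members. Only 4 (12.5%, against 16.7% of all members) were higher in knockdown and lower in overexpression. These were PSMD11 (1.16 and -0.40), PSMD2 (1.26 and -0.23), PSMD14 (1.07 and -0.24) and PSMD1 (0.85 and -0.38). Of 29 lysosomal genes, 11 were lower in knockdown and higher in overexpression and none the reverse (median difference 0.75), with the ceramidase ASAH1 at -1.51 and 1.56, the cathepsin CTSH at -2.40 and 0.33, GRN at -1.43 and 0.69 and CTSA at -1.28 and 0.46.

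Of 27 NRF2 targets and aldo-keto reductases, 9 were lower in knockdown and higher in overexpression, but 3 with deposited TPM. ALDH3A1, an aldehyde dehydrogenase, stood at 327 ± 40.6 against 13.2 ± 0.960 rescaled TPM (SD, n = 3) at 24 h and at 85.4 ± 2.64 against 346 ± 30.7 at 72 h. AKR1C2 had effects of -1.93 and 0.30, TKT -1.80 and 0.24 and GPX2 -0.62 and 1.32. Of 33 genes of ER folding, disulfide isomerases and ERAD, the family to which AGR2 belongs, 3 were in each reciprocal class and 8 were lower in both. The 8 became 1 with deposited TPM. Under that scaling 1 gene was lower in knockdown and higher in overexpression, 10 were the reverse and 4 were higher in both. The 8 became 3 without replicate 2 of the 72 h controls or replicate 3 of the overexpressing cells. They became 5 without either other 72 h control or without knockdown replicate 2 or 3. The chaperone-like MANF and the transcription factor XBP1 fell in knockdown, by 1.21 and 0.80, while their overexpression effects of 0.08 and 0.04 did not pass the test. HERPUD1 had effects of -0.85 and 0.40 and the disulfide isomerase TXNDC5 0.56 and -0.70. The list's median difference of 0.34 became -0.13 with deposited TPM.

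The cholesterol list was the plainest same-sign case. Of 24 tested genes of cholesterol synthesis and uptake, 16 were lower in both and none was in another class, and the median difference was 0.00. The difference was called higher in 5 (20.8%) and lower in 10 (41.7%), against 35.6% and 35.5% of all members, and 9 did not pass. With deposited TPM 5 were lower in both and 3 were higher in knockdown and lower in overexpression. SC5D, a sterol desaturase, had effects of -0.72 and -1.49. The reductase TM7SF2 fell by 3.14 in knockdown with an overexpression effect of -0.26 that did not pass the test (limma adjusted p = 0.135). Of 13 fatty acid synthesis genes, 4 were lower in both, SREBF1 was reciprocal at -1.02 and 0.56 and ACLY was reciprocal in the other direction at 0.61 and -0.21. The desaturase FADS1 fell by 1.01 in overexpression alone and ELOVL5 was lower in both at -0.26 and -1.27.

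Among 29 cytokine, chemokine and NF-kB feedback genes, 8 were higher in knockdown and lower in overexpression (15 with deposited TPM), 3 the reverse and 6 lower in both, with CXCL1 at 1.64 and -1.64 and the feedback inhibitor TNFAIP3 at 1.44 and -1.58. Of 27 glycolysis and hypoxia genes, 10 were in that class and 5 lower in both, with PFKP at 0.35 and -1.40, ENO1 at 0.68 and -0.53, ENO2 at 0.84 and -0.83 and CA12 at 1.06 and -0.27. Of 21 p53 targets, 6 were in that class, including AEN (1.60 and -1.31) and the CDK inhibitor CDKN1A (0.46 and -1.87), and 3 were the reverse, including BTG2 (-0.45 and 1.53). Of 14 S100 genes, 2 were lower in knockdown and higher in overexpression and 3 the reverse, S100A2 among them at 1.23 and -1.29.

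All 5 tested metallothioneins had a lower difference, against 35.5% of all members. MT1A had effects of 2.20 and -1.65, and MT1F was lower in both at -0.90 and -1.91. MT1E, also among the 5, was at 0 in every 72 h library, as given above. Of 8 tested cancer-testis antigens, 4 were higher in knockdown and lower in overexpression, with CTAG2 at 62.2 ± 9.70 against 120 ± 13.8 rescaled TPM (SD, n = 3) at 24 h and at 74.6 ± 2.32 against 1.25 ± 0.386 at 72 h, CTAG1A at 0.88 and -1.79 and MAGEA10 at 0.16 and -1.14. Of 20 clustered histone genes, 8 were lower in knockdown and higher in overexpression (3 with deposited TPM), with H2BC5 at -1.31 and 0.66 and H2AC18 at -1.06 and 0.89, while H4C3 rose in knockdown by 1.46 and did not pass in overexpression at -0.81. Of 46 cytosolic ribosomal protein genes 2 were reciprocal, RPL24 among them at -0.75 and 0.57, and 6 were lower in both. The 6 became 1 with deposited TPM, 13 without replicate 1 of the overexpressing cells, 18 without replicate 1 of the 24 h controls as well, and 3 without replicate 1 of the 24 h controls, replicate 3 of the 72 h controls or any knockdown library. The 2 became 1 without replicate 1 of the 24 h controls or of the knockdown cells or replicate 3 of the 72 h controls. With deposited TPM none was lower in knockdown and higher in overexpression, 4 were the reverse and 2 were higher in both. RPL28, RPL23 and RPL32 had differences of 1.02, 0.80 and 0.78, all lost with deposited TPM. Of 44 nuclear oxidative phosphorylation subunits 4 were reciprocal, with UQCRB at -0.67 and 0.42 and NDUFB5 at -0.35 and 0.69. Of the 4, 3 were lower in knockdown and higher in overexpression. The 3 became 1 without replicate 2 of the 24 h controls or knockdown replicate 3, and 6 without replicate 2 of the overexpressing cells. With deposited TPM the 3 became 0, while 4 were in the reverse class and 10 were higher in both. In that list 27 did not pass the test of the difference. COX5B and NDUFB10 fell in knockdown by 0.77 and 0.55 and did not pass in overexpression. The median differences of the ribosomal and oxidative lists, 0.36 and 0.23, became -0.18 and -0.29 with deposited TPM. Members of the keratin, metallothionein, histone, IFITM and CTAG families share sequence, and reads may have been split among them.

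A class fixes the order of perturbed and control cells within each time, so only some orders of the 4 group means are possible. Every possible order occurred in both reciprocal classes. Among genes lower in knockdown and higher in overexpression, 728 (45.2%) had the order knockdown, 72 h control, 24 h control, overexpression from low to high, and 453 (28.1%) had the controls the other way round. AGR2 had neither order. From low to high its groups were knockdown, 72 h control, overexpression and 24 h control, an order held by 124 genes of the class (7.70%). Among genes higher in knockdown and lower in overexpression, 715 (40.2%) had the order overexpression, 24 h control, 72 h control, knockdown, and 457 (25.7%) had the controls exchanged. The change of the controls from 24 h to 72 h was above 0 in 49.8% of all members. It was above 0 in 28.4% of genes lower in knockdown and higher in overexpression and in 74.4% of the reverse class. For genes higher in both and lower in both the shares were 47.5% and 60.4%. The orders and these shares use the libraries that set the classes and carry no test.

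**Figure D4:**
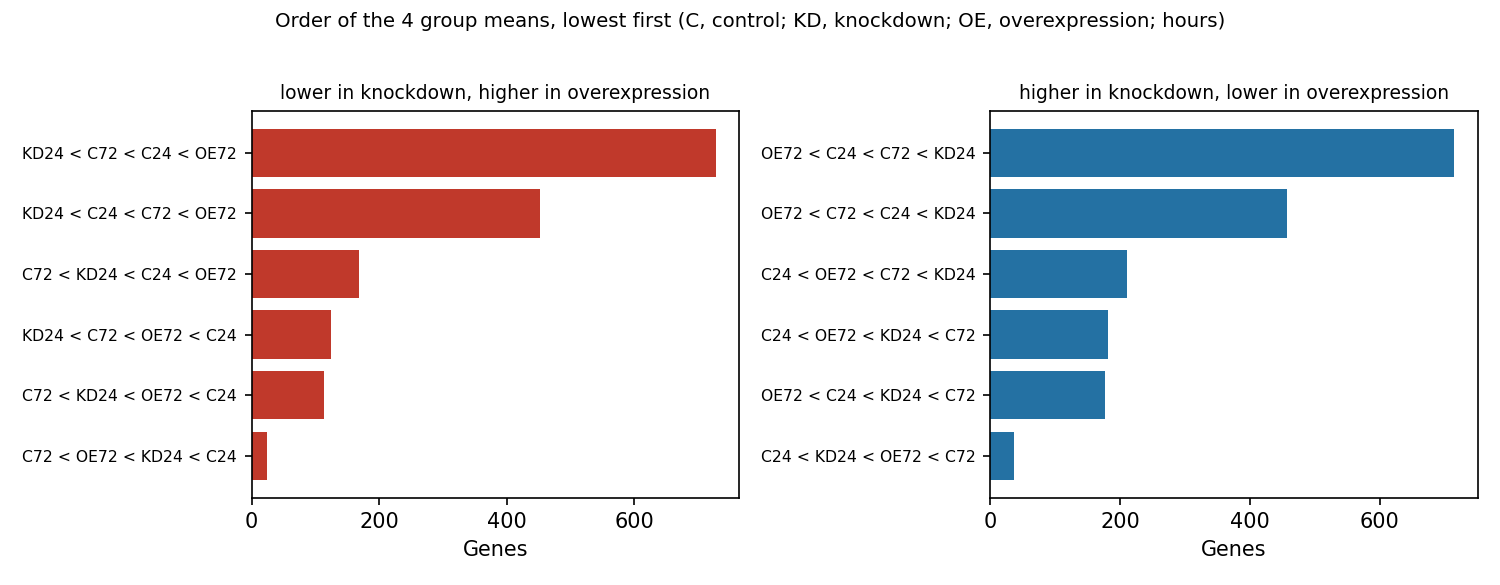
Number of reciprocal genes (horizontal axis) with each order of the 4 group means, lowest group first, for genes lower in knockdown and higher in overexpression (left) and the reverse (right). The 2 orders with both controls in the middle lead each panel, with 728 and 453 genes on the left and 715 and 457 on the right, and the order of AGR2 holds 124.

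The classes differed in features the rule did not use. The median transcript length was 2996 bases in genes lower in knockdown and higher in overexpression and 4044 bases in the reverse class, against 3479 bases in all members. Their median GC content was 55.2% and 47.3%, against 49.9%. Genes higher in both resembled the second of these, with 3902 bases and 45.6%, and genes lower in both the first, with 3080 bases and 52.3%. With the trend of each library on length and GC removed, 66.7% of the genes past both tests were reciprocal, but membership changed. Of the genes of the 4 classes, 88.1%, 79.9%, 69% and 83.3% kept their class. The classes then held 2007, 1717, 778 and 1081 genes. The median level was 7.17, 4.47, 4.64 and 6.83 rescaled TPM in the 4 classes and 5.21 in all members. Unlike length and GC, the level comes from the libraries that set the filter and the classes.

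Class membership also varied along the chromosomes. On chromosome 15, 31.3% of 319 members were higher in knockdown and lower in overexpression and 5.64% were the reverse, while on chromosome 19 the counts were 56 and 175 of 876 members. Genes higher in both made up 14.2% of members on chromosome 3, and genes lower in both made up 15.2% on chromosome 7 and 15.7% on chromosome 11. In 147 blocks of 20 Mb with at least 20 members, a division made after the data were seen, the median knockdown effect ran from -0.61 to 0.47 and the median overexpression effect from -0.47 to 0.53. Medians lay beyond 0.25 in either direction in 21 blocks for knockdown and in 21 for overexpression.

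In some blocks the median departed from 0 in 1 comparison more than in the other. On chromosome 7 between 100 and 120 Mb, the median knockdown effect of 87 members was -0.61 (medians of single libraries -0.60 to -0.57), 78 of them lay below 0, and the median overexpression effect was 0.14. There 36.8% were lower in knockdown and higher in overexpression. On chromosome 3 between 40 and 60 Mb, the medians of 158 members were -0.40 and 0.00. On chromosome 14 between 20 and 40 Mb, the medians of 109 members were -0.12 and 0.48 (single libraries 0.48 to 0.49), and 32.1% were lower in knockdown and higher in overexpression. On chromosome 15 between 80 and 100 Mb, the medians of 63 members were 0.07 and -0.47 (single libraries -0.53 to -0.48), and 39.7% were higher in knockdown and lower in overexpression.

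Other blocks moved the same way in both comparisons. On chromosome 3 between 140 and 160 Mb, the medians of 45 members were 0.33 and 0.34 and 31.1% were higher in both. On chromosome 11 between 60 and 80 Mb, the medians of 267 members were -0.19 and -0.30 and 22.8% were lower in both. In every block named here, the 3 libraries of the perturbed group had medians on the same side of 0 in the comparison that moved. The part of these blocks in the classes was not tested.

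**Figure D5:**
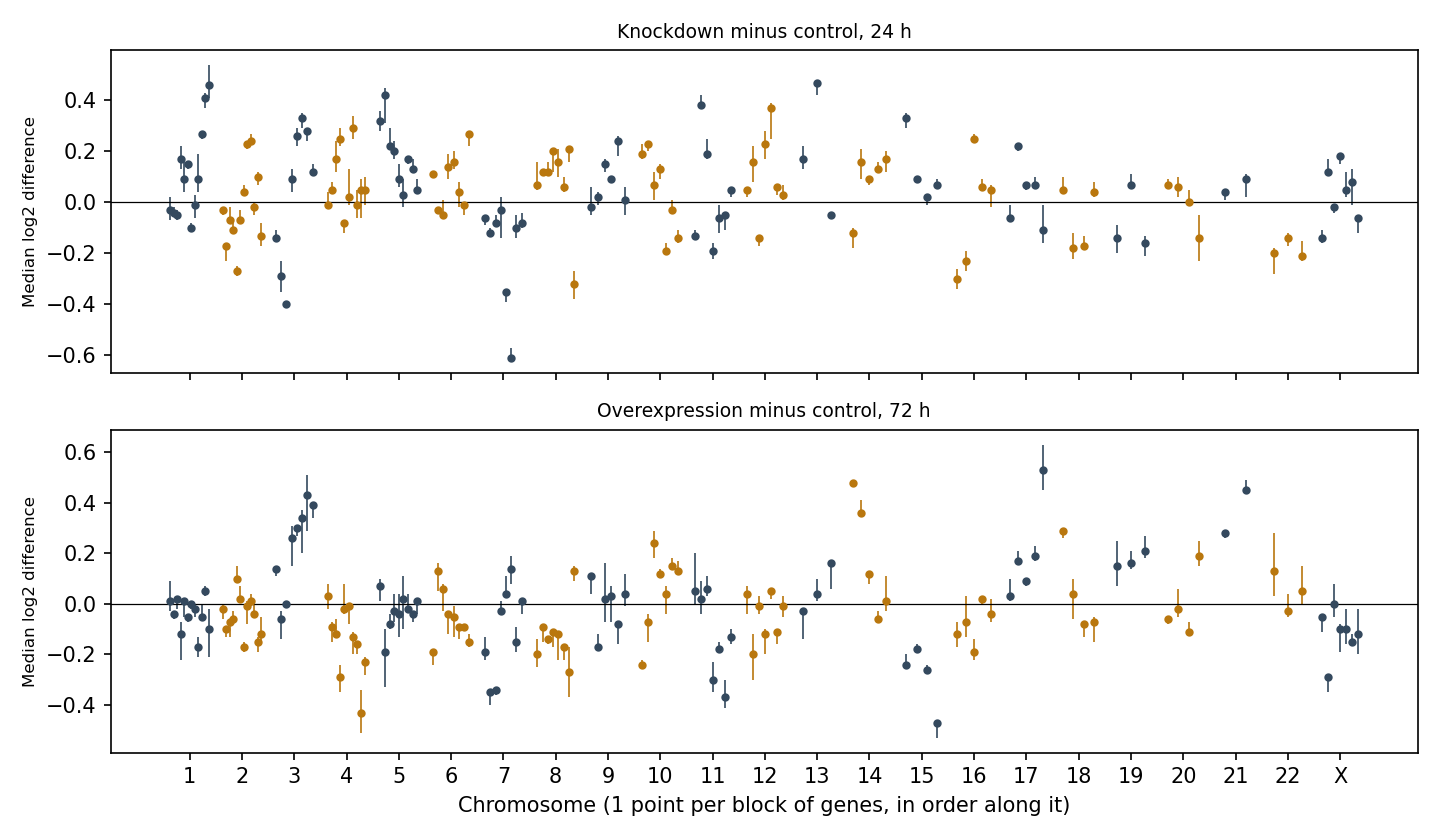
Median log2 effect of knockdown (top) and overexpression (bottom) over blocks of neighbouring members, in order along each chromosome (horizontal axis). Points are medians of the group effect and bars reach the lowest and the highest median of the 3 perturbed libraries against the control mean. Runs of neighbouring blocks depart from 0 together, such as -0.35 and -0.61 on chromosome 7 in knockdown and 0.48 and 0.36 on chromosome 14 in overexpression.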

How the data were processed

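Per the labels' protocols, total RNA was isolated with NucleoZOL and prepared as Illumina libraries. The submitters' processing notes name STAR 2.7.8a and the build hg38/GRCh38; no quantifier, annotation release or strandedness is given in the sources used here. For 12 libraries the authors deposited TPM. Each library sums to 1000000, so depth is unknown.

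Each library was divided by its median ratio, over the members, to the geometric mean of all libraries. All 15721 genes of any biotype with at least 1 TPM in 3 libraries were fitted as log2(rescaled TPM + 1) in limma 3.58.1 (R 4.3.3, mean-variance trend, 4 group means, 8 residual degrees of freedom), with Benjamini-Hochberg adjustment over all of them and a threshold of 0.05. Tables and figures used Python 3.11 with pandas and matplotlib. The fit was tested on simulated data.

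Named genes were AGR2, the 8 of each class with the largest smaller effect (mean of at least 5 in the higher group, no overlap of libraries), the 6 largest differences of each sign among members with an effect that did not pass, and up to 4 per list, of which some are not reported here. The members and the 31 gene lists were chosen with earlier results of these data known. Length and GC came from GENCODE 29, and promoters from RefSeq (GRCh38.p14) matched by symbol for 8668 members (81.2%). Whether strands were separated is unknown, and 5874 members (55.0%) overlap a listed gene on the other strand, AGR2 and 13 of the 32 genes named by class included. Alternatives were other scalings, pseudocounts, filters, variance models and left-out libraries.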

Additional observations from a re-analysis of the deposited data

How the results depend on the processing

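The share of reciprocal genes among members past both tests, a measure added after the data were seen, was 69.1% and ran from 62.9% (library quality weights, whose estimate did not converge) to 70.0% (quantile normalisation) over all settings at the 0.05 threshold without a minimum effect, and from 65.7% to 70.6% with 1 library left out. It was 69.3% over members with no gene on the other strand, also chosen after the data were seen. With 1 library left out, interaction calls (of the difference) ran from 7146 to 7799, and the classes from 1419 to 1658 (lower in knockdown, higher in overexpression), 1573 to 1773 (the reverse), 528 to 814 (higher in both) and 724 to 979 (lower in both).

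With TPM as deposited the first class and the same-sign classes held 739, 1576 and 305 genes. The interaction calls with 5 TPM in 3 libraries, which tests fewer genes, were 4703, and the last 3 classes held 1093, 394 and 563 genes. Library quality weights gave 1281 and 1440 same-sign genes, and the cause was not tested. A minimum of 2-fold left 2572 interaction calls and 136, 70, 6 and 39 genes.

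With the replicate block there were 7682 interaction calls and 1634, 1805, 689 and 886 genes in the classes. The labels do not say that numbers pair samples, and the deviations of same-numbered libraries correlated at 0.741, 0.573 and 0.291 between 24 h controls and overexpression and at -0.414 to 0.268 between other groups.

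Signs changed in 6 genes. The interaction of VEGFA (the difference of effects) was -0.415 with deposited and -0.0762 with quantile-normalised TPM. The interaction of HMOX1 was -0.246 with deposited TPM (limma adjusted p = 0.0384) and -0.0366 with the length and GC trend removed, and the interaction of CDC42EP5 was -0.00799 and -0.17 in the same settings. With libraries left out, the interaction of EHF ran from -0.202 to 0.00604, the interaction of PNN from -0.0914 to 0.0806 and the interaction of METRN from -0.491 to 0.00622. With the trend removed EHF was at 0.0943 and PNN at 0.243. Of these 6 genes HMOX1 alone had passed the test. For 9 named genes the call was lost in at least 1 setting, and for 5 it was gained. As depth is unknown, no limit from counting can be given.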
